A study of Mus musculus with 9 samples.

Results

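A set of 10 genes of the red pulp macrophage of the spleen were followed through RNA-seq libraries of CD4+ T cells: *C1qa*, *C1qb*, *C1qc*, *Fcna*, *Vcam1*, *Spic*, *Cd5l*, *Slc40a1*, *Hmox1* and *Adgre1*. They were taken by gene symbol and are 10 of the 55487 genes listed. The set was selected on known function with its TPM values in these same libraries in view, so levels and fold changes of the 10 genes are given as a description and without a test. The cells came from spleens of C57BL/6 mice, wild type for the TRAIL receptor (*Trail-r*+/+), which the study's methods give as female and 6 to 7 weeks old, and were purified with a negative selection kit. One group of 3 libraries was cultured in medium only, for a time the sources used here do not give. A second group of 3 was activated for 24 h with Abs against CD3, part of the TCR complex, at 3 µg/ml and against the costimulatory receptor CD28 at 2 µg/ml, and is called activated here. The last 3 libraries came from TRAIL-treated activated cells, to which TRAIL, a death ligand related to tumor necrosis factor, was added at 10 µg/ml along with both Abs for 24 h. All 3 groups share the genotype and the purification, and the sources do not say which libraries came from separate animals or cultures, so p-values measure only the spread between libraries. The study asked with these groups how TRAIL alters the transcriptome of activated T cells.

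Red pulp macrophages line the open blood spaces of the spleen, take up aged red blood cells and recycle their iron. In these cells heme from digested hemoglobin is opened by heme oxygenase-1 (*Hmox1*), and the freed iron leaves through ferroportin (*Slc40a1*). The transcription factor SPI-C (*Spic*) is needed for their development and is induced by heme, and VCAM-1 (*Vcam1*) and F4/80 (*Adgre1*) are surface proteins by which they are recognized. They also secrete proteins that bind microbes and dying cells, among them the subunits of complement C1q (*C1qa*, *C1qb*, *C1qc*), ficolin A (*Fcna*) and CD5L (*Cd5l*). T cells are not known as a main source of these transcripts, although *Hmox1* is a stress gene that many cell types make.

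Values are TPM, transcripts scaled to the same total in each library, which state the share of a transcript in its library and can be compared between genes because they are per length. Libraries of one group resembled each other, with correlations of log2 values between 0.993 and 0.997, and no library stood apart. Medium and TRAIL-treated libraries correlated at 0.985 to 0.990, and medium and activated libraries at 0.941 to 0.953. T cell genes were abundant in all groups. *Trac*, the constant segment of the TCR alpha chain, averaged 929.9, 799.8 and 956 TPM in medium, activated and TRAIL-treated cells, and *Cd3g*, a chain of the CD3 complex, averaged 615, 299 and 595 TPM. Genes of other blood cells were present as well, and their values are given further on.

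The 10 genes were abundant in medium libraries, scarce in activated libraries and abundant again in TRAIL-treated libraries. Their summed level was 1551, 1790 and 1546 TPM in the medium libraries, 69.8, 69.9 and 65.4 TPM in the activated libraries and 1461, 1686 and 1701 TPM with TRAIL. This was 0.155 to 0.179% of all transcripts in medium, 0.00654 to 0.00699% after activation and 0.146 to 0.170% with TRAIL. Every activated library lay below every other library for each of the 10 genes. Among all genes tested, 42.6% had every activated library below every medium library and 35.5% had every TRAIL-treated library above every activated library, and 34.9% lay the other way in the latter comparison. Because the libraries are bulk RNA and TPM is a share, fewer macrophages, less RNA per macrophage and more RNA from other cells cannot be told apart.

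**Figure D1:**
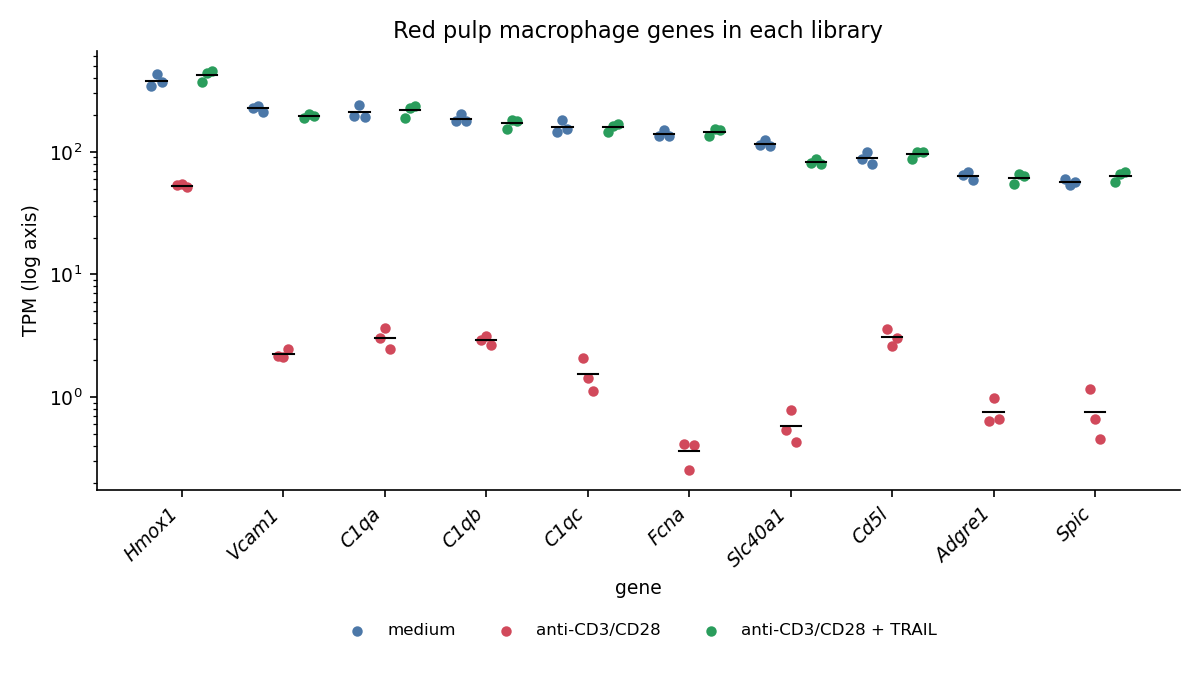
TPM of the 10 genes (log axis) in each of the 9 libraries, with points for libraries coloured by group and a black bar at each group mean. The activated libraries lie below the medium and TRAIL-treated libraries for every gene, and *Hmox1* keeps the highest level among them, with a mean of 53.1 TPM.

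Of the C1q subunits, *C1qc* was the lowest in every library. C1q is the recognition part of the classical complement pathway, and each of its molecules is assembled from all 3 chains. *C1qa* was at 197, 242 and 192 TPM in medium, at 3.05, 3.66 and 2.47 TPM after activation, and at 189, 226 and 237 TPM with TRAIL. *C1qb* was at 178, 203 and 178 TPM, at 2.91, 3.15 and 2.66 TPM, and at 152, 182 and 178 TPM in the same order. *C1qc* was at 146, 181 and 155 TPM, at 2.08, 1.42 and 1.12 TPM, and at 145, 163 and 167 TPM. For all 3 subunits the medium and TRAIL-treated libraries overlapped. The medium mean was 68.8 times the activated mean for *C1qa*, 64.1 times for *C1qb* and 104 times for *C1qc*. The TRAIL-treated mean was 71.0, 58.7 and 103 times the activated mean. The genes sit side by side on the minus strand of chromosome 4 (GRCm38), *C1qb* at 136880129-136886187, *C1qc* at 136889804-136893065 and *C1qa* at 136895917-136898803. The cluster spans 18675 bp, with gaps of 3616 bp and 2851 bp between neighbours. The ratio of *C1qa* to *C1qb* was 1.13 ± 0.0586 (SD, n = 3 libraries) in medium and 1.27 ± 0.0482 with TRAIL, and the libraries did not overlap in it, at 1.08 to 1.19 and 1.24 to 1.33. After activation it was 1.05 ± 0.116. The ratio of *C1qc* to *C1qb* was 0.822 to 0.892 in medium, 0.420 to 0.714 after activation and 0.896 to 0.953 with TRAIL.

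The other secreted proteins differed in the size of the difference. *Fcna* encodes ficolin A, which binds sugars on microbes and starts the lectin pathway of complement. It was at 134, 151 and 136 TPM in medium, at 0.418, 0.256 and 0.410 TPM after activation, and at 135, 152 and 152 TPM with TRAIL. This was the largest difference of the 10 genes, a medium mean 388 times and a TRAIL-treated mean 405 times the activated mean. *Cd5l* encodes a scavenger receptor-like protein that macrophages secrete and that limits their death. It was at 87.3, 99.7 and 79.8 TPM in medium, at 3.63, 2.60 and 3.03 TPM after activation, and at 87.2, 99.0 and 99.8 TPM with TRAIL. Its medium mean was 28.8 times and its TRAIL-treated mean 30.9 times the activated mean, and the medium and TRAIL-treated libraries overlapped for both genes. *Fcna* lies on chromosome 2 (25624666-25628030, minus strand) and *Cd5l* on chromosome 3 (87357881-87371073, plus strand). A gene antisense to *Fcna*, *Fcnaos*, did not exceed 0.097 TPM in any library.

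*Spic* encodes an ETS factor, a relative of PU.1, and ETS proteins bind DNA with a GGAA core. It lies on chromosome 10 (88674772-88685015, minus strand) and was at 59.9, 53.7 and 56.5 TPM in medium, at 1.16, 0.666 and 0.459 TPM after activation, and at 56.6, 65.9 and 68.8 TPM with TRAIL. The medium mean was 74.3 times and the TRAIL-treated mean 83.6 times the activated mean, and medium and TRAIL-treated libraries overlapped. The 250 bases before the transcript start given by RefSeq were searched for GAGGAA, a form of the PU.1-type core, on both strands. RefSeq (GRCm38.p6) windows were at hand for 5 of the 10 genes, *Fcna*, *Cd5l*, *C1qb*, *C1qc* and *Spic*, and 4 of the 5 held the motif. *Fcna* held 3 matches, none overlapping and the last 2 adjoining, *Cd5l*, *C1qb* and *C1qc* held 1 each, and *Spic* held none. Among all 32851 windows of this length, 23.3% held the motif at least once and 0.429% held it at least 3 times. The RefSeq start is not always the gene boundary in the deposited table. The window of *Spic* lies wholly inside the listed gene. That of *C1qc* overlaps its gene by 151 bases and that of *Fcna* by 56 bases, while those of *Cd5l* and *C1qb* lie outside. A match is a description of the letters, no binding was measured, and regulation of these genes by SPI-C was not tested. The 4 windows with a match are shown 5′ to 3′ on the strand of the gene, with the motif or its reverse complement in capitals, *Fcna* at chr2:25627975-25628224 (minus), *Cd5l* at chr3:87357631-87357880 (plus), *C1qb* at chr4:136886201-136886450 (minus) and *C1qc* at chr4:136892915-136893164 (minus).
Fcna: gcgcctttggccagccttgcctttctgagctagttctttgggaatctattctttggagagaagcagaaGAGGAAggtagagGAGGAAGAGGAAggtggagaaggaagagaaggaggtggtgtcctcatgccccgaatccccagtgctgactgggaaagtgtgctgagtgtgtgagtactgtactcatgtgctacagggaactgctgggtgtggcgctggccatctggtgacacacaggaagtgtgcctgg
Cd5l: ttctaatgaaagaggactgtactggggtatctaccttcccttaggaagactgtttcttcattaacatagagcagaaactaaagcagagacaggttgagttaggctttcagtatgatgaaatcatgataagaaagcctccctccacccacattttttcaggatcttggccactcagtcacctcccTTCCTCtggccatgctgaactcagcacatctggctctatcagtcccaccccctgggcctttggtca
C1qb: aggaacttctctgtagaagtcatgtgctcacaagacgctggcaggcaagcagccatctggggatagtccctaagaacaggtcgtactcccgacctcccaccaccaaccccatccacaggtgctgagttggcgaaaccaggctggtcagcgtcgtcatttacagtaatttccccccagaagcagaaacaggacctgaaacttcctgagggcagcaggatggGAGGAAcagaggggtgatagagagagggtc
C1qc: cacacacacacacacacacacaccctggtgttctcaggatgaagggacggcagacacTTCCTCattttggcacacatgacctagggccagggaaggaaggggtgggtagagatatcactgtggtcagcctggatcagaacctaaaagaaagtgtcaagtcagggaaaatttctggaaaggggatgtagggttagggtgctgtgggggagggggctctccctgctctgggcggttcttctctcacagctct

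Of the surface proteins, *Vcam1* encodes an adhesion molecule that binds the integrin alpha4 beta1 on lymphocytes and other cells. It was at 228, 238 and 212 TPM in medium, at 2.16, 2.12 and 2.45 TPM after activation, and at 187, 204 and 197 TPM with TRAIL. The TRAIL-treated libraries lay below all medium libraries, at a mean of 86.7% of the medium mean. Over all genes tested the median was 86.6%, and 38.2% had every TRAIL-treated library below every medium library. *Adgre1* encodes F4/80, an adhesion G protein-coupled receptor used as a marker of mouse macrophages. It was at 64.9, 68.9 and 58.5 TPM in medium, at 0.635, 0.976 and 0.660 TPM after activation, and at 55.1, 66.4 and 63.2 TPM with TRAIL, where the medium and TRAIL-treated libraries overlapped. The medium mean was 101 times the activated mean for *Vcam1* and 84.7 times for *Adgre1*, and the TRAIL-treated mean was 87.3 and 81.3 times the activated mean. *Vcam1* lies on chromosome 3 (116109949-116129688, minus strand) and *Adgre1* on chromosome 17 (57358691-57483527, plus strand). The gene *Gm43109*, antisense to *Vcam1*, did not exceed 0.006 TPM.

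The heme and iron genes of the set gave the smallest and one of the largest differences. *Hmox1* was at 341, 427 and 368 TPM in medium, at 53.2, 54.3 and 51.8 TPM after activation, and at 372, 441 and 459 TPM with TRAIL. It was the most abundant of the 10 genes in every group. Its medium mean was 7.14 times and its TRAIL-treated mean 7.98 times the activated mean, so activated libraries kept 14.0% of the medium level. *Hmox1* therefore made up 23.2 ± 1.07% of the summed level of the 10 genes in medium, 77.7 ± 1.42% after activation and 26.2 ± 0.748% with TRAIL (SD, n = 3). *Slc40a1* was at 114, 125 and 111 TPM in medium, at 0.543, 0.779 and 0.427 TPM after activation, and at 81.4, 87.4 and 79.5 TPM with TRAIL. Its medium mean was 199.9 times the activated mean, next after *Fcna*, and its TRAIL-treated mean was 142 times the activated mean. All 3 TRAIL-treated libraries lay below all 3 medium libraries for *Slc40a1*, at a mean of 71.0% of the medium mean, the lowest of the set. Over all genes tested, 38.2% lay apart in this direction, and the median was 86.6% of medium. The ratio of *Slc40a1* to *Hmox1* was 0.291 to 0.335 in medium libraries and 0.173 to 0.219 in TRAIL-treated libraries, and the ratio of *Slc40a1* to *Vcam1* was 0.501 to 0.523 and 0.403 to 0.435. Neither ratio overlapped between these groups, and a scaling of whole libraries does not alter them. Both ratios use the same *Slc40a1* values as the percentage above, so they are a description and no separate support. *Hmox1* lies on chromosome 8 (75093621-75100589, plus strand) and *Slc40a1* on chromosome 1 (45908068-45926523, minus strand).

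In medium the order of the levels was *Hmox1*, *Vcam1*, *C1qa*, *C1qb*, *C1qc*, *Fcna*, *Slc40a1*, *Cd5l*, *Adgre1* and *Spic*. *Hmox1* stood above *Vcam1* in all libraries, *Fcna* above *Slc40a1*, *Slc40a1* above *Cd5l* and *Cd5l* above *Adgre1*. Each gene from *Vcam1* to *C1qc* overlapped with the next in the range of its libraries, as did *Adgre1* with *Spic*. Within single medium libraries, however, only *Vcam1* and *C1qa* changed order. With TRAIL, *C1qa* preceded *Vcam1*, *Cd5l* preceded *Slc40a1* and *Spic* preceded *Adgre1*, and the ranges of each of these pairs overlapped. Within every TRAIL-treated library *C1qa* lay above *Vcam1* and *Cd5l* above *Slc40a1*, while *Spic* and *Adgre1* changed order between libraries. After activation *Hmox1* was followed, without overlap, by *Cd5l*, whose libraries overlapped with those of *C1qa*, and *Fcna* was lowest, below every other gene of the set.

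On the scale of the fit, log2(TPM + 1), the difference of activated from medium libraries ran from -6.70 (SE 0.10) for *Fcna* to -2.81 (SE 0.11) for *Hmox1*, with a median of -5.64 over the 10 genes. Over all 15536 genes that reached 1 TPM in 3 or more libraries, the median was -0.15. TRAIL-treated against activated libraries gave 6.76 for *Fcna*, 2.97 for *Hmox1* and a median of 5.59. These comparisons share the activated libraries, and both were in view when the genes were chosen. For the genes outside the set that are tested further on, a call required a limma adjusted p under 0.05 together with a log2 fold change of 1 or more in size. Among all genes tested, 19.5% were called lower on activation (31.9% in either direction), and with TRAIL against activated cells 16.6% were called higher and 14.3% lower. All 10 passed the filter on low values, *Fcna*, *Slc40a1* and *Adgre1* through the medium and TRAIL-treated libraries alone, as no activated library reached 1 TPM. *Spic* reached 1 TPM in 1 activated library, and the other 6 genes in all 3.

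TRAIL-treated against medium libraries gave log2 fold changes from -0.49 for *Slc40a1* to 0.16 for *Hmox1* and *Spic*, with a median of 0.01 over the 10 genes and of -0.18 over all genes tested. Among all genes, 4.62% were called in this contrast, 2.49% higher and 2.13% lower. The libraries of *Vcam1* and *Slc40a1* were apart in this contrast, both lower with TRAIL, as were 38.2% of all genes in that direction. The split of calls in this contrast depended on the scaling. Of the 718 genes called, 53.9% were higher, and this share became 74.2% with median-of-ratios scaling and 70.7% with quantile normalization. The median of all genes shifted by 0.17 and 0.14. *Slc40a1* remained below medium under both, at -0.30 and -0.39, while *Vcam1* went from -0.20 to -0.02 and -0.17. Of the 10 genes, 5 lay above 0 here, 8 and 7 under these scalings and 5 when the total left out genes of other cells. A shift common to all genes moves those near 0 to its other side.

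**Figure D2:**
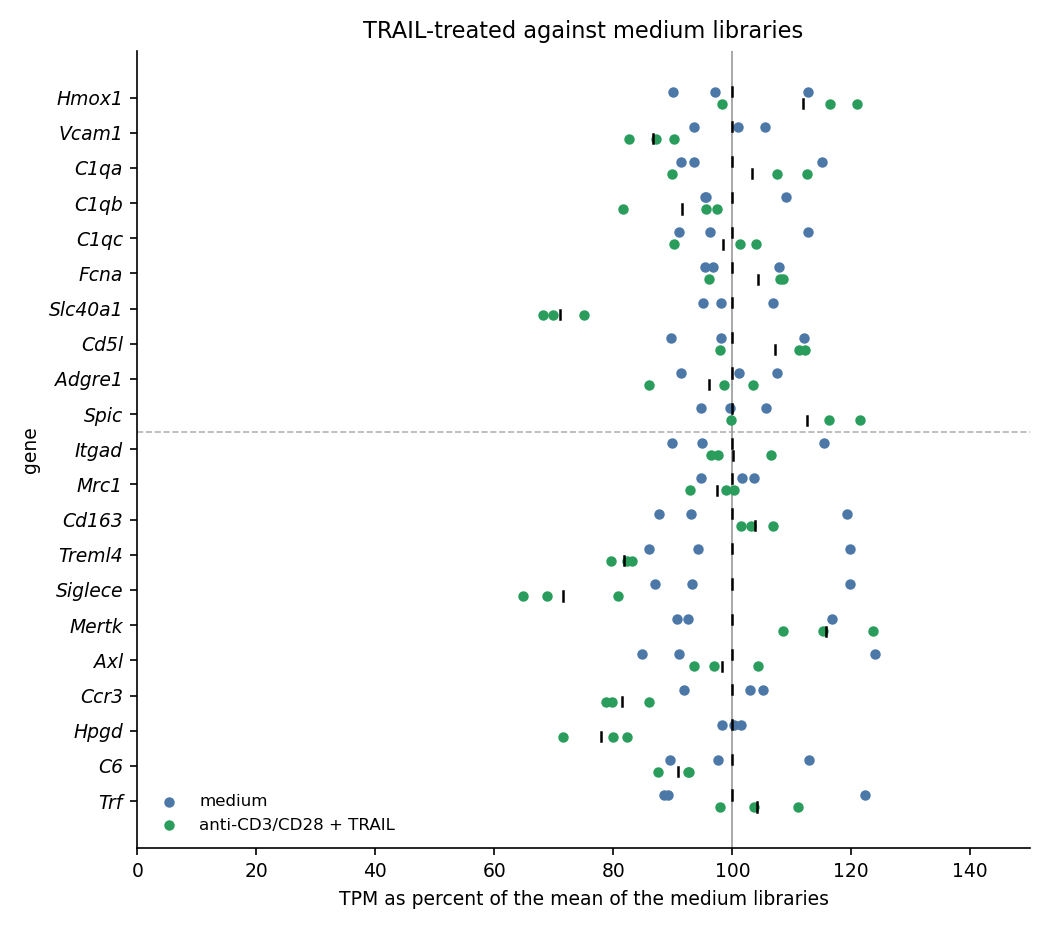
TPM of each medium and TRAIL-treated library as a percentage of the mean of the medium libraries, for the 10 genes (above the dashed line) and 11 of the 12 further red pulp macrophage genes (below it), with points for libraries and black ticks at group means. *Slc40a1* has the lowest mean of the 10 genes with TRAIL, at 71.0%, and *Siglece* a similar one among the further genes, at 71.5%.

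Another 12 genes known from red pulp or other tissue macrophages were measured in the same libraries. On activation 12 of 12 were called lower (median log2 fold change -4.89), beside 19.5% of all genes, and 12 of 12 were called higher in TRAIL-treated than in activated cells (median 4.86), beside 16.6%. For 8 of the 12 no activated library reached 1 TPM, so they passed the filter through the other groups alone. The filter favoured a difference for these 8, and the counts are a description. Against medium, none of the 12 was called with TRAIL, and their median was -0.02, with 5 genes above 0 and 7 below. *Trf*, which encodes the iron carrier transferrin, averaged 128 ± 24.7, 0.428 ± 0.00543 and 133 ± 8.33 TPM (SD, n = 3) in medium, activated and TRAIL-treated cells. *Axl* and *Mertk*, receptors for the uptake of dying cells, averaged 113, 5.70 and 111 TPM and 22.7, 1.71 and 26.3 TPM. The mannose receptor gene *Mrc1* averaged 75.4, 0.655 and 73.4 TPM, and *Itgad*, the integrin alphaD chain found on red pulp macrophages, 61.7, 0.128 and 61.8 TPM. *Cd163*, the receptor for hemoglobin bound to haptoglobin, averaged 28.5 TPM in medium and 29.6 TPM with TRAIL, and 2 of its 3 activated libraries were listed at 0.0001 TPM, the value the table gives most undetected genes. *Treml4* averaged 60.2, 0.519 and 49.2 TPM and *Ccr3*, a chemokine receptor also known from eosinophils, 28.7, 0.662 and 23.4 TPM. *C6* averaged 30.0 TPM in medium and 27.3 TPM with TRAIL. *Hpgd*, which encodes a prostaglandin-degrading enzyme, averaged 87.1, 0.0779 and 67.9 TPM, and *Siglece*, an inhibitory sialic acid receptor, 23.1, 0.950 and 16.5 TPM. Both were below the 2-fold limit in TRAIL-treated against medium cells, with log2 fold changes of -0.36 (limma adjusted p = 0.018) and -0.45 (limma adjusted p = 0.045).

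Markers of other macrophages were measured beside these. Of 5 genes linked to the marginal zone of the spleen, 4 were tested, 3 of which passed the filter through the medium and TRAIL-treated libraries alone. They fell on activation (4 of 4, median -3.13), rose with TRAIL against activated cells (4 of 4, median 2.83), and none was called in TRAIL-treated against medium cells (median -0.30). Among all genes tested, 19.5% fell, 16.6% rose and 4.62% were called in these contrasts. *Timd4*, a receptor for phosphatidylserine, averaged 10.0, 0.110 and 8.37 TPM, and *Nr1h3*, which encodes the sterol sensor LXR alpha, 19.5, 1.37 and 19.2 TPM. *Marco* averaged 9.56, 0.574 and 7.18 TPM and *Siglec1* 7.97, 0.00368 and 5.04 TPM, high and low in the same groups as the 10 genes. *Siglec1* was below the 2-fold limit in TRAIL-treated against medium cells (log2 fold change -0.56, limma adjusted p = 0.012). *Cd209b*, a lectin of marginal zone macrophages, averaged 0.296 TPM in medium and was listed at 0.0001 TPM in all activated libraries. Of 9 markers of macrophages in other organs 4 passed the filter, 2 of them (*Siglecf* and *P2ry12*) without an activated library at 1 TPM. These 4 were called lower on activation (median -3.59) and 3 of them higher with TRAIL against activated cells. *Chil3* was the 1 called lower with TRAIL against medium, with averages of 65.6 and 30.4 TPM and a log2 fold change of -1.06, and it was not called without medium replicate 1, with a pseudocount of 5 or under median-of-ratios scaling or quantile normalization. *Ear2*, which eosinophils also express, averaged 33.1, 1.05 and 29.6 TPM. The Kupffer cell gene *Clec4f* was at 0.0001 TPM in 8 of 9 libraries and the microglial gene *Sall1* in all 9. *Gata6*, of peritoneal macrophages, averaged 0.0926 TPM in medium, and *Tmem119*, of microglia, 0.543 TPM. *P2ry12*, known from microglia and platelets, was higher, at 11.4, 0.498 and 9.07 TPM, and was called lower on activation and higher with TRAIL against activated cells. Stromal and endothelial cells can also make *Vcam1*. The stromal markers *Pdgfra*, *Pdgfrb*, *Col1a1*, *Col3a1*, *Cxcl12* and *Ccl21a* each averaged under 1 TPM in every group, as did the endothelial *Kdr*. The endothelial genes *Stab2*, of sinusoids, and *Cdh5* averaged 8.37, 0.0193 and 7.13 TPM and 1.34, 0.0183 and 0.854 TPM, high and low in the same groups as the 10 genes. *Pecam1*, which leukocytes also express, averaged 209, 61.3 and 184 TPM. These 3 were the genes of the list tested, called lower on activation (median -1.76, beside 19.5% of all genes) and not called in TRAIL-treated against medium cells (median -0.19). *Stab2* and *Cdh5* reached 1 TPM in no activated library, so the filter favoured lower activated values for them. The part of endothelial cells in the level of *Vcam1* was not tested.

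Genes shared by phagocytes covered a wider range. Of 11 tested, 10 fell on activation (median -2.40), 10 rose with TRAIL against activated cells (median 2.20), and none was called in TRAIL-treated against medium cells (median -0.26). Among all genes tested, 19.5% fell, 16.6% rose and 4.62% were called in these contrasts. *Csf1r*, the receptor for the macrophage growth factor CSF-1, averaged 156 ± 29.7, 2.08 ± 0.334 and 147 ± 10.3 TPM (SD, n = 3). *Lyz2*, which encodes lysozyme and is also made by neutrophils and monocytes, averaged 545, 7.48 and 346 TPM, with a log2 fold change of -0.64 between TRAIL-treated and medium cells (limma adjusted p = 0.0069). *Cd68* averaged 76.7, 13.5 and 65.5 TPM, *Fcer1g* 114, 25.8 and 94.3 TPM, *Tyrobp* 125, 10.6 and 101 TPM, and *Mpeg1* 139.9, 28.9 and 113 TPM. *Sirpa* and *Fcgr3* averaged 69.8 and 40.2 TPM with TRAIL and 89.3 and 55.0 TPM in medium. *Cd14*, a coreceptor for bacterial lipopolysaccharide, averaged 12.5, 4.36 and 18.9 TPM, and *Clec7a* was not called in any contrast, at 21.8, 17.8 and 29.4 TPM.

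The further genes of heme and iron handling did not move as one group. Of 18, 7 fell and 2 rose on activation (median -0.34), and 8 were higher and 2 lower with TRAIL against activated cells (median 0.56). Among all genes tested, 19.5% fell and 12.4% rose, and 16.6% were higher and 14.3% lower in these contrasts. In TRAIL-treated against medium cells none of the 18 was called (median 0.03), beside 4.62% of all genes. That number was 1 without medium replicate 1, with median-of-ratios scaling or with quantile normalization. It was 6 with a limma adjusted p under 0.05 alone, which called 5063 of all 15536 genes. *Cd163* and *Steap3* reached 1 TPM in no activated library, so the filter favoured their place among those that fell on activation and were higher with TRAIL. *Blvrb*, a biliverdin reductase, averaged 74.1, 6.53 and 44.4 TPM, whereas its relative *Blvra* averaged 32.2, 45.1 and 33.0 TPM. The phagosomal metal transporter gene *Slc11a1* averaged 36.9, 4.77 and 36.8 TPM and *Lrp1*, a receptor for heme bound to hemopexin, 29.1, 2.96 and 29.0 TPM. Both fell on activation and were higher again with TRAIL. The ferritin genes *Fth1* and *Ftl1* were far more abundant, at 828, 664 and 984 TPM and at 1389, 1085 and 1588 TPM, and were not called in any contrast. *Tfrc*, the transferrin receptor by which dividing cells take up iron, went the opposite way from *Slc40a1*, at 48.4, 219.6 and 90.3 TPM, a rise on activation of 2.17 in log2 (limma adjusted p = 2.7e-07). Regulators of *Hmox1* belong here as background, its repressor *Bach1* and its activator *Nfe2l2*. *Bach1* averaged 17.8, 8.38 and 29.9 TPM and *Nfe2l2* 92.7, 52.8 and 113 TPM, and both were called higher with TRAIL against activated cells. *Ncoa4*, which delivers ferritin for breakdown, averaged 107, 41.8 and 109 TPM. *Flvcr1*, *Slc48a1*, *Slc11a2*, *Ireb2* and *Aco1* were not called in any contrast, and *Gclm*, called higher on activation, averaged 49.9 ± 31.1 TPM in medium (SD, n = 3) and 142 TPM in activated cells.

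**Figure D3:**
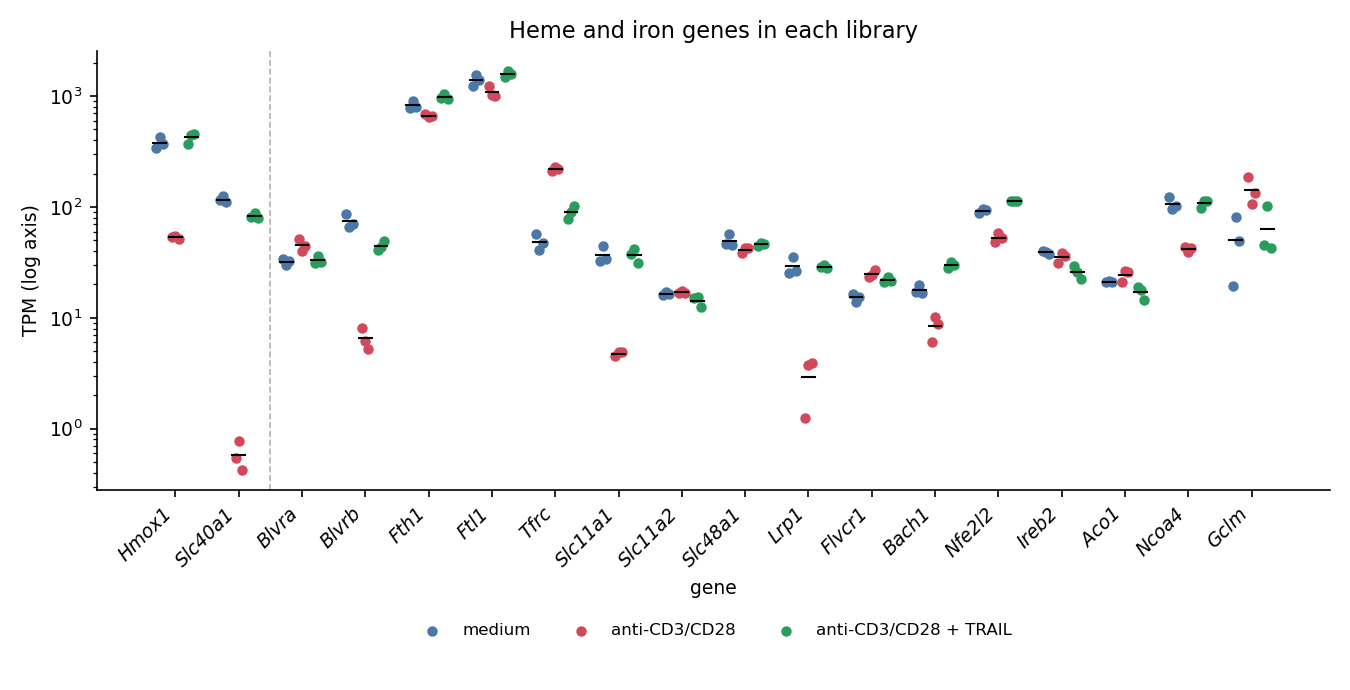
TPM (log axis) of *Hmox1* and *Slc40a1* (left of the dashed line) and of further heme and iron genes in each library, with points coloured by group and black bars at group means. The activated libraries of *Slc40a1* lie under 1 TPM, while those of *Tfrc* lie above every medium and TRAIL-treated library of that gene.

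Complement genes outside the set were mostly scarce, and 12 of 20 were tested. On activation 7 fell and 1, *Cfb*, rose, and 3 of the 12 had no activated library at 1 TPM. Among all genes tested, 19.5% fell and 12.4% rose on activation, and 2.13% were called lower in TRAIL-treated against medium cells. *Cfp*, which encodes properdin, the stabilizer of the alternative pathway, averaged 152, 5.93 and 132 TPM. *Cr2*, the complement receptor of B cells, averaged 108, 1.04 and 43.1 TPM and was the 1 gene of the list called lower in TRAIL-treated against medium cells (log2 fold change -1.32, limma adjusted p = 1.7e-05). *Cd55* averaged 199, 8.17 and 143 TPM and *C3* 22.5, 12.5 and 15.8 TPM. *Itgam* averaged 33.0, 5.49 and 17.8 TPM and *Cr1l* 109.6, 79.3 and 85.0 TPM. The proteases that act with C1q were near the limit of the filter or below it, with *C1ra* at 1.10 TPM and *C1s1* at 0.366 TPM in medium, and *Mbl2* was at 0.0001 TPM in all 9 libraries.

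Partners of VCAM-1 and related adhesion genes were also measured. Of 6 tested, 4 fell and 1 rose on activation (median -1.79), and none was called in TRAIL-treated against medium cells (median -0.21). Among the 4, *Itga9* passed the filter through the medium and TRAIL-treated libraries alone. Over all genes tested, 19.5% fell and 12.4% rose on activation, and 4.62% were called in TRAIL-treated against medium cells. *Itga4*, the alpha4 chain that binds VCAM-1, averaged 216, 13.6 and 177 TPM, and *Itgb1*, its beta1 partner, 170.2, 111 and 126 TPM. *Itgb7* averaged 317, 90.9 and 292 TPM, *Itga9* 10.8, 0.349 and 10.2 TPM, and *Icam2* 128, 36.2 and 86.3 TPM. *Icam1* was the exception, at 36.5, 100.4 and 38.6 TPM, a rise on activation of 1.44 in log2 (limma adjusted p = 1.5e-06).

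Of 11 transcription factors that share the ETS family with SPI-C or act in macrophages, 8 fell and 3 rose on activation (median -1.67). Among the 8, *Cebpa* reached 1 TPM in no activated library. Over all genes tested, 19.5% fell and 12.4% rose on activation. In TRAIL-treated against medium cells, 2.13% of all genes were called lower and 2.49% higher. *Spi1*, which encodes PU.1, averaged 49.5, 13.7 and 29.6 TPM, and *Spib*, a factor of B cells and plasmacytoid dendritic cells, 186, 7.64 and 68.3 TPM. *Spib* was the 1 factor called lower in TRAIL-treated against medium cells (log2 fold change -1.44, limma adjusted p = 8.8e-05), while *Spic* in the same libraries averaged 56.7 ± 3.13 and 63.8 ± 6.38 TPM (SD, n = 3). *Cebpb* was the 1 called higher, at 47.0, 141 and 138 TPM. *Irf8* averaged 138, 358 and 86.5 TPM, *Runx3* 54.1, 125 and 57.8 TPM, *Maf* 28.9, 12.6 and 30.9 TPM and *Id3* 38.0, 11.3 and 23.3 TPM.

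The libraries also held transcripts of other spleen cells. Summed erythroid, B cell, and neutrophil and monocyte genes were lower in activated libraries, as the 10 genes were. Of 9 dendritic cell genes, 6 were called lower and 1 higher on activation (median -1.32), beside 19.5% and 12.4% of all genes. Without *Ccr7*, which T cells also express, their sum was 65.6 to 69.3 TPM in medium, 39.9 to 42.7 TPM after activation and 40.8 to 46.2 TPM with TRAIL. All 4 platelet genes tested were called lower on activation, and none was called higher with TRAIL against activated cells. Among the genes tested, 3 erythroid, 3 neutrophil and monocyte, 4 dendritic cell and 2 platelet genes had no activated library at 1 TPM and passed the filter through the other groups alone. The summed level of 8 erythroid genes was 2101 to 2555 TPM in medium, 26.4 to 41.3 TPM after activation and 617 to 667 TPM with TRAIL. For 7 B cell genes it was 2146 to 2246, 178 to 194 and 884 to 996 TPM, and for 10 neutrophil and monocyte genes 940 to 1284, 76.6 to 102 and 579 to 698 TPM. In TRAIL-treated against medium cells, 7 of 8 erythroid genes (median -1.86) and 6 of 7 B cell genes (median -1.19) were called lower, beside 2.13% of all genes. All 10 neutrophil and monocyte genes were below 0 (median -0.83), and the number called was 1 (*Ngp*). That number was 0 without TRAIL-treated replicate 1, 2 without TRAIL-treated replicate 2 or 3 or medium replicate 3, and 4 without medium replicate 2. It was also 0 with a pseudocount of 5, median-of-ratios scaling or quantile normalization, and 2 with a pseudocount of 0.1. A limma adjusted p under 0.05 alone called 9 of the 10, and 5063 of all 15536 genes. The globin genes *Hba-a2* and *Hba-a1*, whose reads can be exchanged between near-identical copies, averaged 649 and 634 TPM in medium and 171 and 177 TPM with TRAIL. *Cd79a* and *Cd79b*, chains of the B cell receptor, averaged 555 and 504 TPM in medium and 268 and 179 TPM with TRAIL. *S100a9* and *Ngp*, of neutrophils, averaged 432 and 209.7 TPM in medium and 245 and 103 TPM with TRAIL. Of 9 dendritic cell genes none was called in that contrast (median -0.55), or 1 without medium replicate 2, with a pseudocount of 0.1 or with median-of-ratios scaling. Of 4 platelet genes tested *Pf4* (9.94 and 1.02 TPM) and *Ppbp* (10.2 and 1.72 TPM) were called lower (median -1.51), and of 7 T cell genes none was called (median 0.00). With a limma adjusted p under 0.05 alone, 8 of the 9 dendritic cell, all 4 platelet and 1 of the 7 T cell genes were called. *Ccr7* averaged 289, 537 and 564 TPM, and *Itgax* 29.8, 3.06 and 16.6 TPM. *Batf3*, called higher on activation, averaged 4.07, 29.6 and 4.91 TPM, and *Zbtb46* 2.44, 5.86 and 1.2 TPM. The part of any of these cells in the levels of the 10 genes was not tested.

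**Figure D4:**
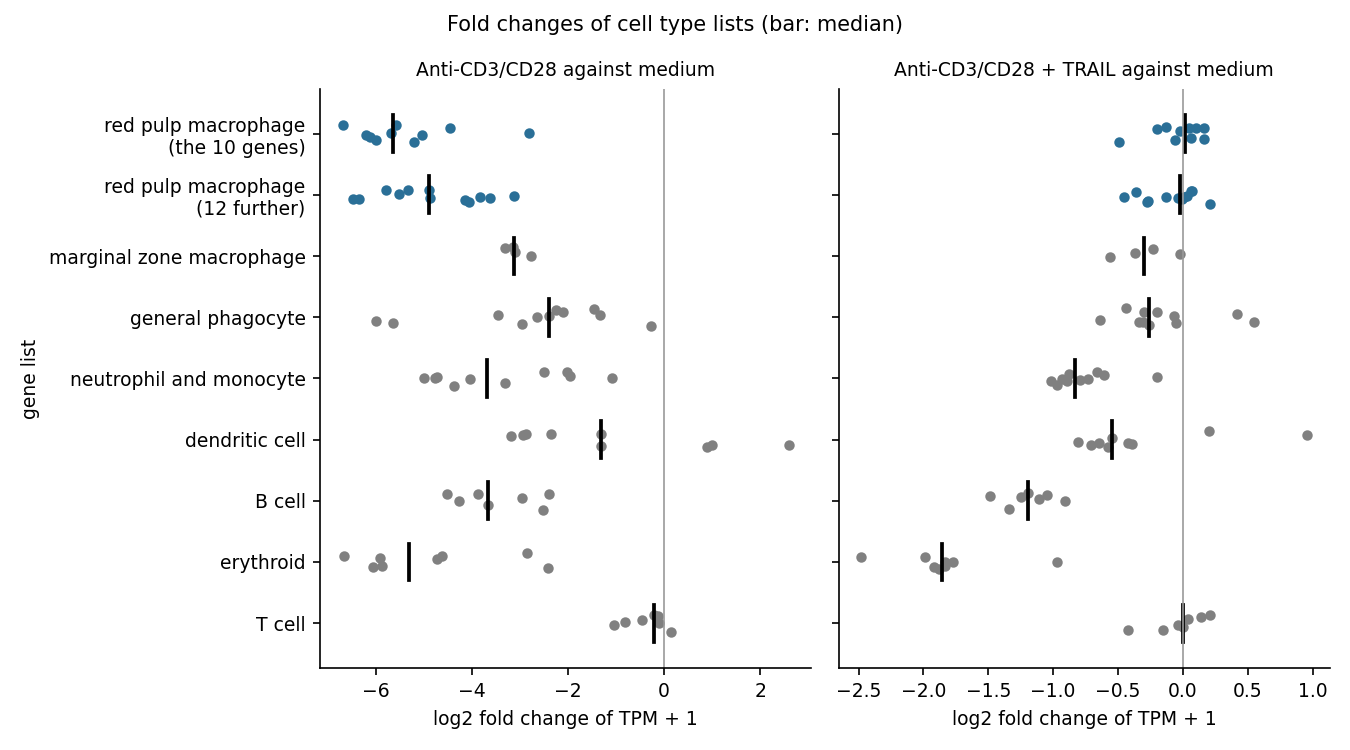
Log2 fold changes of TPM + 1 for single genes (points) of 9 gene lists, with black bars at the median of each list, for activated against medium cells (left) and TRAIL-treated against medium cells (right), on axes of different range. Medians on the right are near 0 for both red pulp lists and the T cell list, -1.19 for B cell genes and -1.86 for erythroid genes.

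Within a library, ratios of summed levels do not depend on how libraries are scaled. These ratios were chosen after the values were seen and are given without a test. The sum of the 12 further red pulp macrophage genes divided by that of the erythroid genes was 0.252, 0.381 and 0.259 in medium libraries, 0.265, 0.503 and 0.480 in activated libraries and 1.02, 1.03 and 0.998 in TRAIL-treated libraries. Divided by the B cell sum it was 0.299, 0.356 and 0.288, then 0.0615, 0.0683 and 0.0740, then 0.630, 0.707 and 0.740 in the same order. In both ratios the TRAIL-treated libraries lay above all others. Divided by the T cell sum it was 0.207, 0.235 and 0.197 in medium and 0.188, 0.215 and 0.222 with TRAIL, which overlapped, and 0.00443 to 0.00537 after activation. For the 10 genes themselves the ratio to the erythroid sum was 0.607, 0.852 and 0.627 in medium, 1.69, 2.65 and 2.39 after activation and 2.37, 2.53 and 2.60 with TRAIL. *Hmox1* set the level of the activated libraries here. Without it the ratio was 0.474, 0.649 and 0.478 in medium, 0.401, 0.593 and 0.499 after activation and 1.77, 1.87 and 1.90 with TRAIL, so that medium and activated libraries overlapped and the TRAIL-treated libraries lay above both. Their ratio to the T cell sum was 0.5, 0.526 and 0.475 in medium, 0.0261 to 0.0283 after activation and 0.438, 0.528 and 0.579 with TRAIL.

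Likeness to the set was measured as the root mean square difference between centred log2(TPM + 1) profiles over the 9 libraries and the mean profile of the 10 genes. Within the set, *C1qb* (0.09) and *Adgre1* (0.12) were nearest to the mean, and *Fcna* (0.65) and *Hmox1* (1.17) farthest. Of 12147 other genes with a group mean of at least 5 TPM, the nearest were *Mrc1* (0.09), *Adgre4* (0.13), *Csf1r* (0.19), *Itgad* (0.22), *Treml4* (0.23), *Cd163* (0.24), *Rnu11* (0.25), *C6* (0.26), *Gm45552* (0.27) and *Fos* (0.30). *Adgre4*, which encodes another adhesion G protein-coupled receptor, averaged 42.5, 0.0768 and 37.7 TPM. *Fos*, an immediate early gene of many cell types, averaged 322, 6.97 and 478 TPM, and *Rnu11*, the U11 RNA of the minor spliceosome, was at 46.6 TPM in medium, at 0.0001 TPM in all activated libraries and at 33.7 TPM with TRAIL. *Gm45552* averaged 161, 2.96 and 128 TPM. The order depends on the pseudocount: with 0.1 in place of 1, 1 of these 10 genes remained among the nearest 10, and with a Pearson correlation as the measure 5 remained. The points fall into 3 groups of libraries, and the 9 libraries are therefore not independent points.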

How the data were processed

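RNA-seq libraries from mouse splenic CD4+ T cells (3 groups of 3) were grouped by their labels. The authors prepared mRNA libraries with a SureSelect kit, and the submitters' processing notes name Trimmomatic 0.36, HISAT2 2.1.0, SAMtools 1.2, StringTie 2.1.2 and DESeq2. The deposited table gives TPM for 55487 genes, summing to 1000000 in each library. The program that made the TPM values, its annotation and its strand setting are not given in the sources used here. The notes list GRCh38, whereas the paper names the mouse build GRCm38, at which the loci of all 10 genes match GENCODE M21. TPM keeps no depth, so counting error is unknown, and a rise of some transcripts lowers the share of others. Most undetected genes are listed at 0.0001 TPM (305 values lie below it), which may stand for an estimate that failed, and no fold is stated where a whole group has this value. A fold change is on the log2(TPM + 1) scale, which understates changes of low genes.

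Groups were compared with limma 3.58.1 (lmFit, eBayes with a trend) in R 4.3.3, in 1 fit of all 9 libraries with a pseudocount of 1, over the 15536 genes that reached 1 TPM in 3 or more libraries, with Benjamini-Hochberg adjustment. The 10 genes and all gene lists were chosen with earlier results of these data known. Named genes were the 10, those of 7 lists (red pulp, marginal zone, phagocyte, heme and iron, complement, adhesion, transcription factors) with a group mean of at least 10 TPM, defining markers near 0, the 2 most abundant genes of each other list, and the 10 nearest profiles. Genes named outside this rule (such as *Fcnaos*, *Gm43109*, *Marco*, *Siglec1*, *Cfb*, *C1ra*, *C1s1*, *Cdh5*, *P2ry12*, *Siglecf*, *Steap3*, *Cebpa*, *Batf3* and *Zbtb46*) were chosen after their values were seen. Alternatives varied the pseudocount, filter, scaling, variance trend, libraries in the fit, call rule and replicate block, and left out each library. The values of 1 list gene are not reported here by name. Figures were drawn with Python 3.11.15 and matplotlib 3.10.9.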

Additional observations from a re-analysis of the deposited data

How the results depend on the processing

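Over all genes, activated against medium, TRAIL-treated against activated and TRAIL-treated against medium cells gave 4959, 4800 and 718 calls. With a pseudocount of 0.1 the median log2 fold changes of the first contrasts became -6.18 and 6.24 for the 10 genes and -6.68 and 6.53 for the 12 further red pulp macrophage genes, and with a pseudocount of 5 they became -4.52 and 4.22 and -3.12 and 3.04. Genes called in TRAIL-treated against medium cells then numbered 1167 and 332, and with a pseudocount of 5 the other contrasts gave 2946 and 2883 calls. Quantile normalization gave -5.48 for the 10 genes on activation and moved the share of all calls that were higher from 38.8 to 50.1%. Median-of-ratios scaling gave medians of 0.20 and 0.17 for the 10 and the 12 genes in TRAIL-treated against medium cells. An adjusted p under 0.05 alone called 10678, 10420 and 5063 genes, among them, as a description, 2 of the 12 (*Hpgd* and *Siglece*) as lower in TRAIL-treated against medium cells. Of the 10 nearest profiles, 5 were shared with a Pearson measure and 1 with a pseudocount of 0.1. Leaving out each library in turn gave 4749 to 5202, 4649 to 4950 and 650 to 815 calls, medians of -5.72 to -5.56, 5.53 to 5.66 and -0.04 to 0.09 for the 10 genes, and of -4.95 to -4.78, 4.84 to 4.87 and -0.08 to 0.05 for the 12. Same-numbered libraries did not deviate together (correlations from -0.306 to 0.295), and with the number as a replicate block 4960, 4802 and 714 genes were called and the 10 genes had medians of -5.64, 5.59 and 0.01. The cause of these shifts was not tested. The depth of the libraries is unknown, so levels under 1 TPM in activated cells carry an unknown counting error.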
